A study of Mus musculus with 8 samples.

Results

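The tumor necrosis factor (TNF) receptor and ligand superfamily was examined in uterine RNA of gravid Cox-1 KO and wild-type mice at d18.0. Its members were every probe set whose gene symbol in the array's annotation starts with Tnfrsf or Tnfsf, and those of Tnf, Lta, Ltb, Ltbr, Fas, Fasl, Cd40, Cd27 and Cd70. This gave 37 of the 28000 probe sets of the deposited table. Of the 37, 34 carried a single gene symbol, for 20 genes (16 receptors and 4 ligands), and 3 carried several symbols. Female mice of 6 to 16 weeks by the labels were used, with 4 Cox-1 KO mice of a C57BL/6 x Sv129 background and 4 wild-type mice of C57BL/6 background, and the RNA of each mouse was hybridized to an Affymetrix 430 2.0 array. The methods call the second strain 129P2, and describe taking out the fetuses with their membranes and placentas before RNA was prepared. Cox-1 KO mice lack cyclooxygenase-1, the product of Ptgs1, in all tissues and deliver their pups late. Strain background and gene deletion differ together and cannot be told apart in any comparison here. The study used the comparison to look for uterine genes of the parturition pathway. It picked Tnfrsf9 among its candidates on these same 8 arrays, together with earlier arrays of normal pregnancy. The Tnfrsf9 values here are therefore not independent evidence of its direction. The study also measured Tnfrsf9 by Northern blot at d18.0, which is not part of the data used here.

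Ligands of this superfamily are mostly trimeric proteins on the surface of immune cells, some of which are shed. Their receptors either carry a death domain, through which they can start apoptosis, or bind TRAF adaptor proteins, through which they activate NF-kB and kinase pathways. A few receptors are decoys that bind a ligand without signalling. In the pregnant uterus the family is known for its part in the crosstalk of leukocytes, decidua and trophoblast.

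Signals were those of Affymetrix Microarray Suite (MAS5) on a linear scale, and log2 signals of Cox-1 KO uteri were set against those of wild-type uteri with limma. Probe sets were tested where 4 or more arrays had a signal of 100 or more, with p-values adjusted by Benjamini-Hochberg over all 26444 tested. Array medians lay between 731 and 757, and pairs of arrays correlated at 0.944 to 0.982. The deleted gene Ptgs1 had signals of 88, 122, 76 and 136 on Cox-1 KO replicates 1 to 4 and of 7048, 10610, 10756 and 10508 on wild-type replicates 1 to 4. Markers of the labelled tissue were bright on every array: smooth muscle actin Acta2 had 66361 to 72540 in Cox-1 KO and 59991 to 70074 in wild-type uterus. Transcripts of yolk sac and fetus (17 of 23 listed genes measured) divided the arrays by genotype only in part, with Cox-1 KO replicate 2 and wild-type replicate 4 unlike their groups. All 17 log2 fold changes were above 0, with a median of 3.54. At a limma unadjusted p under 0.05, 10 were higher and none lower (against 3.69% and 5.12% of all probe sets), and none passed with adjustment. Their mean log2 level relative to all arrays was 3.24, -2.46, 2.83 and 2.49 on Cox-1 KO replicates 1 to 4, against -2.95, -2.81, -2.76 and 2.41 on wild-type replicates 1 to 4. For the members described in most detail, values with this level as a covariate are given beside the results. Because the level went with genotype in part, such values do not fully separate it from genotype. As the RNA is of whole uterus, fewer cells of a type and less RNA per cell cannot be told apart. The number of arrays limits the precision.

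No superfamily probe set passed an adjusted p under 0.05 with limma, and the 36 tested were centred near 0. The background for this call was 0.0113% of all probe sets (3 of 26444). The log2 fold changes ran from -0.71 to 0.61, with 16 above 0 (44.4%, against 42.5% of all probe sets) and 20 below 0, and their median was -0.01, against -0.03 over all probe sets tested. The median size of the change, regardless of direction, was 0.16 for the members and 0.11 for all probe sets. An unadjusted p under 0.05 was reached by 4 members (11.1%, against a background of 8.81%). Of these, 3 probe sets were higher (8.33%, against 3.69%) and 1 was lower (2.78%, against 5.12%). The 3 were both tested probe sets of Tnfrsf9 and 1 of Tnfrsf12a, and the fourth was 1 of Tnfrsf21. The 3 higher probe sets thus stand for 2 genes. The lowest Cox-1 KO array was above the highest wild-type array for 2 members, a probe set of Tnfrsf9 and one of Cd40 (5.56%, against 1.5%), and no member had all Cox-1 KO arrays below the wild-type ones (against 2.91%). With the methods' t-test on log2 signal at an unadjusted p of 0.05 and a 1.5-fold ratio of means, 1 member passed, a Tnfrsf9 probe set (2.78%, against 0.862%), and none passed after Benjamini-Hochberg adjustment (against 0.00756%). The 95% interval of a member had a median half-width of 0.34 on the log2 scale, and 0.28 for the 15 probe sets with 1000 or more on every array. For 16 of the 36 the whole interval lay within 0.5 of 0.

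**Figure D1:**
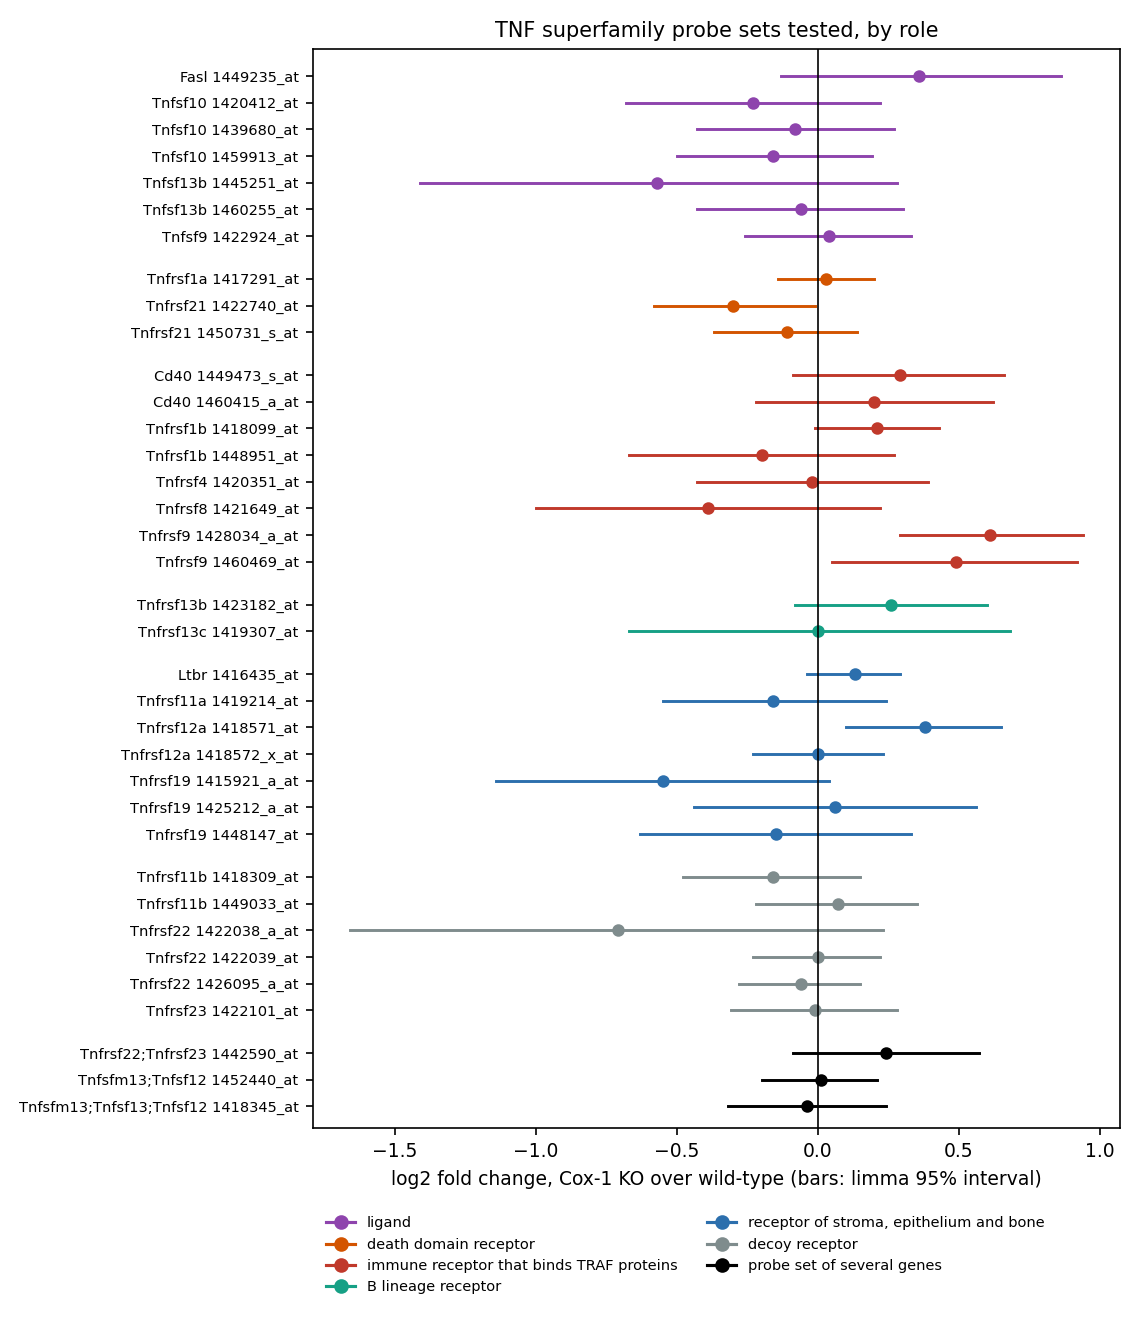
Log2 fold change (x axis, Cox-1 KO over wild-type) of the 36 superfamily probe sets tested, in blocks by role, with limma's 95% interval as bars (n = 4 arrays each). Both Tnfrsf9 probe sets (0.61 and 0.49) and 1 of Tnfrsf12a (0.38) lie above 0 with their intervals, and 1 of Tnfrsf21 (-0.30) lies below.

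Tnfrsf9, also named 4-1BB or CD137, is a costimulatory receptor of activated T cells and natural killer cells, and 3 probe sets carried its symbol. On 1428034_a_at the signals were 1739, 2284, 1735 and 1989 on Cox-1 KO replicates 1 to 4, against 1044, 1526, 1493 and 1053 on wild-type replicates 1 to 4. The groups did not overlap, and in wild-type uterus replicates 1 and 4 were low and replicates 2 and 3 high. The mean was 1937 ± 260.2 in Cox-1 KO and 1279 ± 266.5 in wild-type uterus (SD, n = 4 each), a ratio of 1.51. The log2 fold change was 0.61 (standard error 0.147, 95% interval 0.29 to 0.94), and it did not pass over all probe sets (limma adjusted p = 0.309).

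A second probe set of Tnfrsf9, 1460469_at, had signals of 2384, 3813, 2863 and 3411 on Cox-1 KO replicates 1 to 4, against 1573, 2489, 3050 and 1929 on wild-type replicates 1 to 4. Here the groups overlapped, since wild-type replicate 3 lay above Cox-1 KO replicates 1 and 3. Replicates 1 and 4 were again the low wild-type arrays, and replicate 2 was again the highest Cox-1 KO array, followed by replicate 4. Its log2 fold change was 0.49 (standard error 0.198, 95% interval 0.05 to 0.92, limma adjusted p = 0.541). Without wild-type replicate 1 it was 0.33. The log2 ratio of the first probe set to the second averaged -0.67 ± 0.15 on Cox-1 KO and -0.80 ± 0.19 on wild-type arrays (SD, n = 4 each; exact permutation test, two-sided p = 0.371), so a difference between these probe sets in their change was not detectable with 4 arrays a group. The remaining probe set, 1421481_at, was near background. Its signals were 49, 87, 40 and 56 on Cox-1 KO replicates 1 to 4 and 60, 4, 88 and 93 on wild-type replicates 1 to 4. The filter removed it. Without the filter it had a log2 fold change of 0.57 (limma adjusted p = 0.879), although its mean signal was 58 in Cox-1 KO and 61.2 in wild-type uterus. The wild-type values include the signal of 4 on replicate 2, far below the other 3.

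**Figure D2:**
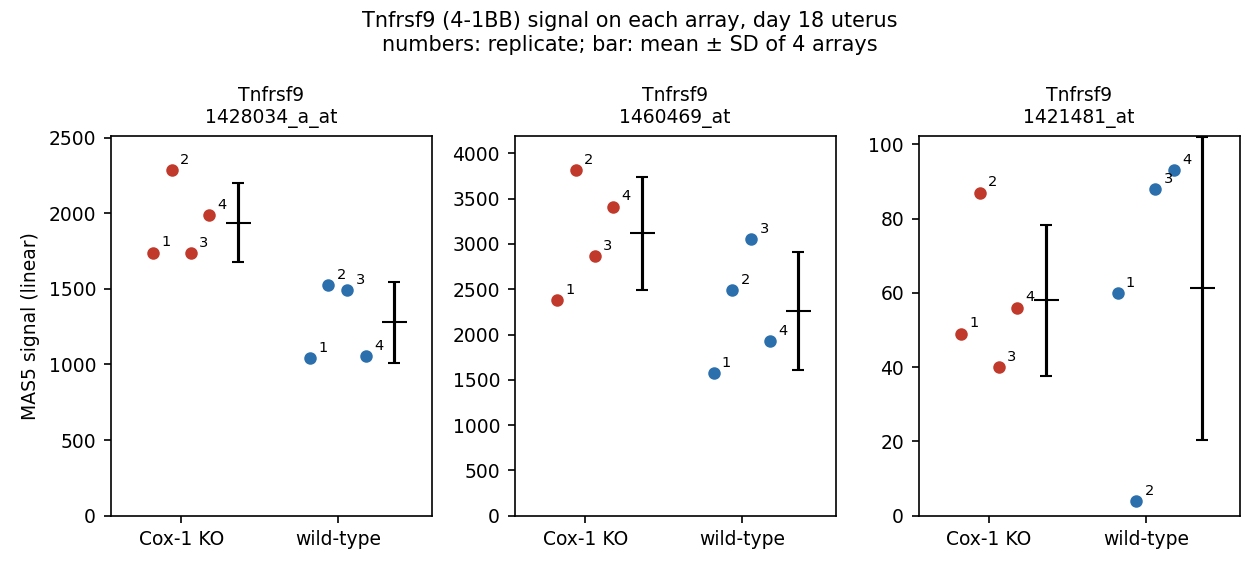
MAS5 signal (linear y axis) of the 3 Tnfrsf9 probe sets on each array, Cox-1 KO left and wild-type right, with replicate numbers beside the points and the mean ± SD of 4 arrays as bars. The groups separate on 1428034_a_at, overlap on 1460469_at, and lie under 100 on 1421481_at.

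The direction of Tnfrsf9 held in every setting that was run. Leaving out an array could not have reversed it on 1428034_a_at, where the groups do not overlap. On 1428034_a_at the log2 fold change ran from 0.49 to 0.81 over 21 other settings of the fit, with adjusted p-values of 0.173 to 0.617, and the unadjusted p was under 0.05 in all of them. On 1460469_at the unadjusted p was under 0.05 in 15 of the 22 settings, the reported one included. Leaving out 1 array, the lowest value of 1428034_a_at was 0.52, without wild-type replicate 1, and the highest was 0.71, without wild-type replicate 2. For 1460469_at these were 0.33, without wild-type replicate 1, and 0.65, without wild-type replicate 3. The value of 0.81 (limma adjusted p = 0.173) came with the yolk sac level in the fit, where 1460469_at had 0.68 (adjusted p = 0.724).

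Marker levels of cells that could carry Tnfrsf9 are given beside it, and their part in its difference was not tested. Of 26 genes of natural killer and cytotoxic cells, 20 were measured, of which 10 were higher and 1 was lower at an unadjusted p under 0.05 (against 3.69% and 5.12% of all probe sets). Their summed signal was 134245 to 194548 in Cox-1 KO and 111700 to 139552 in wild-type uterus. The granzymes Gzmd and Gzmg gave the largest shares, with means of 46471.2 and 42380.8 in Cox-1 KO and 38435.5 and 32354.8 in wild-type uterus. The pore-forming protein Prf1 had 1884, 2962, 2531 and 3216 on Cox-1 KO replicates 1 to 4, against 2220, 1971, 1677 and 1694 on wild-type replicates 1 to 4. Of this list Gzme, Gzmg and Gzmf, granzymes of uterine natural killer cells, had the smallest p-values (log2 fold changes of 0.56, 0.39 and 0.41, limma adjusted p = 0.309, 0.423 and 0.48). The lower gene was Itgae, with a log2 fold change of -0.64. Over the 20 genes, 13 log2 fold changes were above 0 and 7 below. The killer cell receptors of the list had 0.43 (Klrb1b), -0.03 (Klrd1), -0.08 (Klre1), -0.16 (Klrk1) and -0.40 (Klra8). The mean level of the list relative to all arrays was -0.16, 0.19, 0.14 and 0.26 on Cox-1 KO replicates 1 to 4, against 0.13, -0.03, -0.02 and -0.51 on wild-type replicates 1 to 4. Of 22 T cell genes, 5 were measured, with a summed signal of 1321 to 1938 in Cox-1 KO and 1112 to 1980 in wild-type uterus, to which the T cell kinase Zap70 contributed a mean of 851 in Cox-1 KO and 871.2 in wild-type uterus. Their median log2 fold change was 0.35, with 4 of the 5 above 0 and none at an unadjusted p under 0.05. Zap70 had 0.01. The other T cell genes had low signals, with group means from 112.8 (Cd5 in Cox-1 KO) to 273.5 (Icos in Cox-1 KO). The mean level of the 5 genes relative to all arrays ran from -0.12 to 0.25 in Cox-1 KO and from -0.22 to 0.17 in wild-type uterus. The defining marker Cd3e was not analysed here. Of 15 genes of decidua and trophoblast, 8 were measured, with 7 log2 fold changes above 0, 1 higher at an unadjusted p under 0.05 (Wnt4, against 3.69% of all probe sets) and a summed signal of 52073 to 75797 in Cox-1 KO and 33973 to 59821 in wild-type uterus. Their mean level relative to all arrays was 0.06, 0.22, 0.09 and 0.06 on Cox-1 KO replicates 1 to 4, against -0.73, 0.42, 0.22 and -0.35 on wild-type replicates 1 to 4. With the level of the decidua and trophoblast list as a covariate, the log2 fold changes of the 2 tested Tnfrsf9 probe sets were 0.49 and 0.33 (limma adjusted p = 0.27 and 0.61). With that of the natural killer list they were 0.52 and 0.38 (limma adjusted p = 0.186 and 0.485). These 2 settings were chosen after the values were seen, and they do not test a part of these cells in the Tnfrsf9 difference.

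Both promoters of Tnfrsf9 in the RefSeq table (GRCm38.p6, plus strand, 250 bases before to 50 after each start) are shown, because Tnfrsf9 had the smallest p of the members, without passing adjustment. NF-kB is a factor these receptors act through, and no link of its motif to the Tnfrsf9 signals was tested. Capitals mark a match to GGGNNTTCC, letters of an NF-kB site that were chosen after the sequence was seen and were searched on both strands.
Tnfrsf9 first start, chr4:150919905-150920204: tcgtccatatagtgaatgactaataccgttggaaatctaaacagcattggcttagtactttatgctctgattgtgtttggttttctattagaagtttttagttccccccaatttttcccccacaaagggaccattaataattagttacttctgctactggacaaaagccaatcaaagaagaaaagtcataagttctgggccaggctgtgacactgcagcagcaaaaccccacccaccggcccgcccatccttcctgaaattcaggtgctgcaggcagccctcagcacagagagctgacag
Tnfrsf9 second start, chr4:150927749-150928048: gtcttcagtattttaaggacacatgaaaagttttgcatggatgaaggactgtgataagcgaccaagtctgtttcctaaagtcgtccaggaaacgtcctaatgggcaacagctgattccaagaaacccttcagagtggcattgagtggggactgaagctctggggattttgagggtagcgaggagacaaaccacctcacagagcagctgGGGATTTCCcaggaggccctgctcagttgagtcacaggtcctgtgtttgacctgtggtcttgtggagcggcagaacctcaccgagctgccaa
The match starts 42 bases before the second start. These letters occurred in 5.82% of the 32851 promoters of the table, and in 2 of the 19 promoters held for 16 of the 20 member genes, the other being one of Tnfrsf13b. A match is a run of letters and not a site known to be used, and the arrays do not tell which start is used.

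Among the other receptors of immune cells that bind TRAF proteins, the probe sets ran both ways. Cd40, the receptor of antigen-presenting cells for T cell help, had signals of 230, 238, 292 and 243 on Cox-1 KO replicates 1 to 4, against 208, 220, 173 and 221 on wild-type replicates 1 to 4, on 1449473_s_at. These groups did not overlap, with 230 as the lowest Cox-1 KO signal and 221 as the highest wild-type signal. The log2 fold change was 0.29 (standard error 0.17, limma adjusted p = 0.643), and on the other probe set of Cd40, where the groups overlapped, it was 0.20 (adjusted p = 0.783). Genes of macrophages and dendritic cells, which carry Cd40, had a median log2 fold change of 0.01 (20 of 20 measured, 1 higher at an unadjusted p under 0.05, none lower, against 3.69% and 5.12% of all probe sets), with a summed signal of 80842 to 93170 in Cox-1 KO and 81500 to 85158 in wild-type uterus.

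Tnfrsf1b, the TNF receptor TNFR2 of leukocytes and endothelium, had signals of 1276, 1663, 1313 and 1495 on Cox-1 KO replicates 1 to 4, against 1134, 1314, 1293 and 1210 on wild-type replicates 1 to 4, on 1418099_at. Only Cox-1 KO replicates 2 and 4 stood clear of the wild-type arrays. Its log2 fold change was 0.21 (standard error 0.101, limma adjusted p = 0.58), while on its second probe set it was -0.20 (adjusted p = 0.806). Without Cox-1 KO replicate 2 the first probe set had 0.14, and with the yolk sac level in the fit 0.31, at an unadjusted p under 0.05 (adjusted p = 0.809). A difference between the groups in the log2 ratio of the 2 probe sets was not detectable with 4 arrays a group (1.84 ± 0.33 in Cox-1 KO and 1.43 ± 0.32 in wild-type, SD, n = 4 each; exact permutation test, two-sided p = 0.143). Tnfrsf4 (OX40), a receptor of activated T cells, had a log2 fold change of -0.02 (95% interval -0.43 to 0.39). Tnfrsf8 (CD30) had -0.39 (standard error 0.277), at mean signals of 140.2 in Cox-1 KO and 178.5 in wild-type uterus, not far above background. These 3 genes and Tnfrsf9 all lie on chromosome 4.

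**Figure D3:**
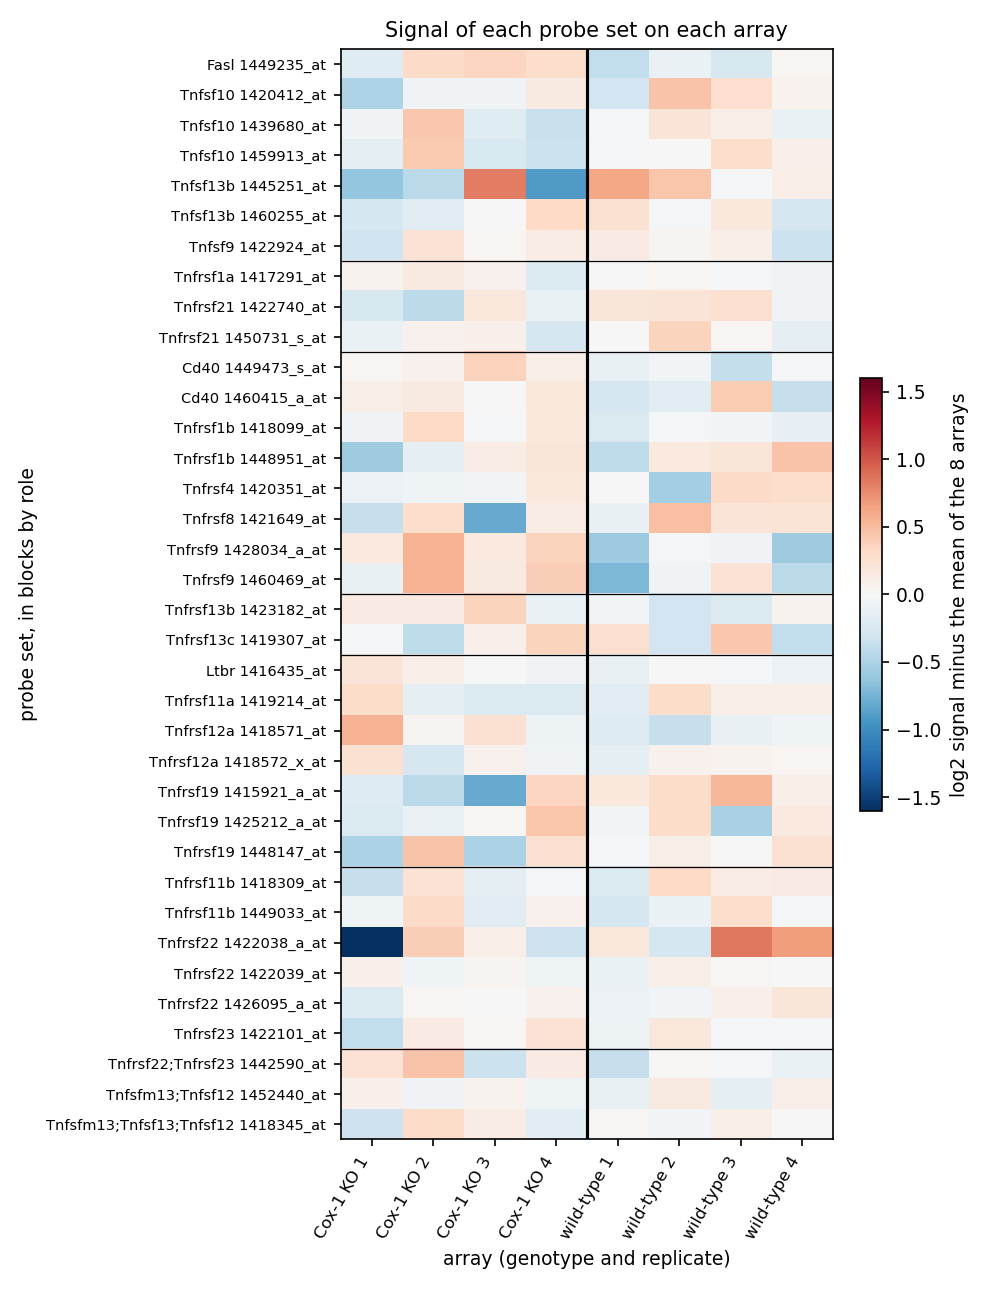
Log2 signal of each tested superfamily probe set on each array minus its mean over the 8 arrays (colour, from -1.59 to 0.84), Cox-1 KO arrays left and wild-type arrays right, in blocks by role. Among the TRAF-binding receptors both Tnfrsf9 rows are lowest on wild-type replicates 1 and 4 and highest on Cox-1 KO replicate 2.

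Receptors of stroma, epithelium and bone gave the member with the next smallest p, Tnfrsf12a. Tnfrsf12a (Fn14) is the small receptor of TWEAK and is induced in injured tissue. On 1418571_at it had signals of 4887, 3413, 3928 and 3140 on Cox-1 KO replicates 1 to 4, against 2876, 2583, 3075 and 3181 on wild-type replicates 1 to 4. Cox-1 KO replicate 1 was the brightest, and replicate 4 lay below the highest wild-type array, so the groups overlapped. The mean was 3842 ± 769.5 in Cox-1 KO and 2929 ± 262.9 in wild-type uterus (SD, n = 4 each). The log2 fold change was 0.38 (standard error 0.126, limma adjusted p = 0.526). It was 0.25 without Cox-1 KO replicate 1, and also 0.25 (adjusted p = 0.94) when the yolk sac level entered the fit. With the natural killer level in the fit it was 0.52 (limma adjusted p = 0.0815), the lowest adjusted p of this probe set in any setting.

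The second probe set of Tnfrsf12a, 1418572_x_at, did not share this difference. Its signals were 3682, 2582, 3263 and 2993 on Cox-1 KO replicates 1 to 4, against 2798, 3254, 3232 and 3161 on wild-type replicates 1 to 4. The wild-type arrays lay within the range of the Cox-1 KO arrays, and the 95% interval of the log2 fold change was -0.23 to 0.23. The ending _x_at marks a set with probes that can also bind other transcripts. The log2 ratio of the first probe set to the second was 0.29 ± 0.16 in Cox-1 KO and -0.09 ± 0.17 in wild-type uterus (SD, n = 4 each), without overlap (exact permutation test, two-sided p = 0.0286, the smallest that 4 arrays against 4 allow, and 0.457 after Benjamini-Hochberg adjustment). This was the only one of 16 such pairs of probe sets of a gene with p under 0.05, and in 5 of the 16 the 2 log2 fold changes had opposite signs.

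**Figure D4:**
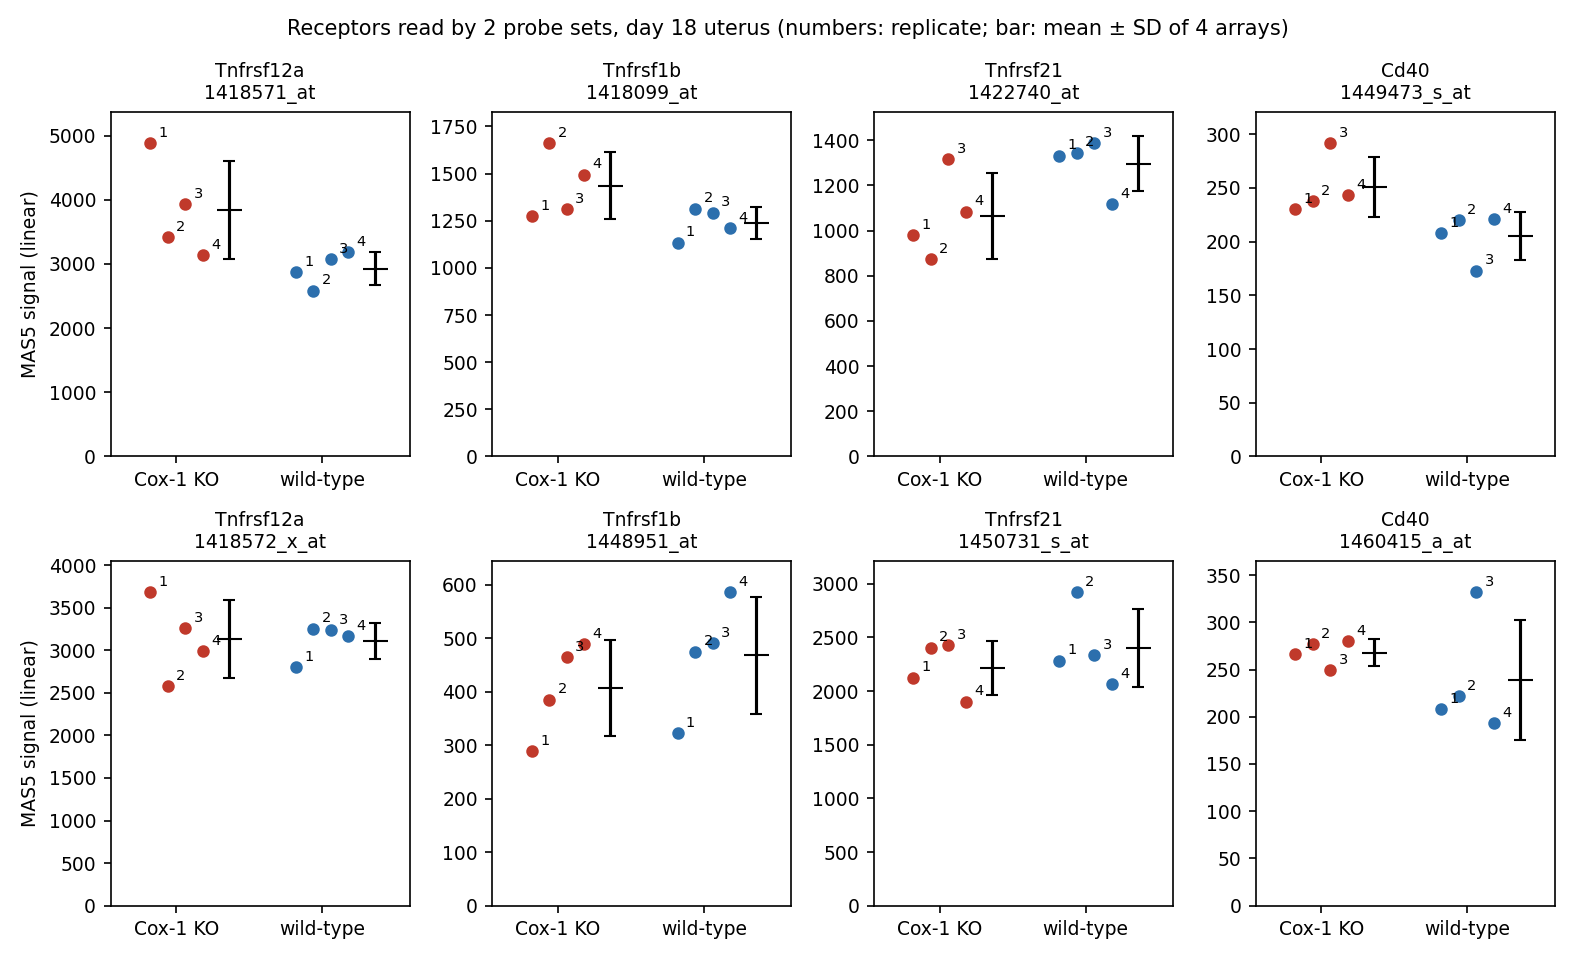
MAS5 signal (linear y axes) on each array for 4 receptors with 2 tested probe sets, one above the other, Cox-1 KO left and wild-type right, with replicate numbers beside the points and the mean ± SD of 4 arrays as bars. The upper Tnfrsf12a probe set averages 3842 in Cox-1 KO and 2929 in wild-type uterus, while the lower averages 3130 and 3111.

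Ltbr, the lymphotoxin beta receptor of stroma, had signals of 2535, 2336, 2209 and 2120 on Cox-1 KO replicates 1 to 4, against 2019, 2190, 2142 and 2057 on wild-type replicates 1 to 4. The groups overlapped at Cox-1 KO replicate 4. Its log2 fold change was 0.13, with a 95% interval of -0.04 to 0.29 (limma adjusted p = 0.643), and 0.08 without Cox-1 KO replicate 1. Tnfrsf19 (TROY), a receptor of epithelial progenitors, had 132, 113, 87 and 194 on Cox-1 KO replicates 1 to 4, against 172, 186, 220 and 164 on wild-type replicates 1 to 4, on 1415921_a_at. Cox-1 KO replicates 1 to 3 were below all wild-type arrays and replicate 4 was not, at signals near background (log2 fold change -0.55, limma adjusted p = 0.583). Its other 2 probe sets had -0.15 and 0.06. Tnfrsf11a (RANK), the receptor of osteoclast precursors and mammary epithelium, had -0.16 (95% interval -0.55 to 0.24).

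The death domain receptors had 3 probe sets. Tnfrsf21 (DR6) had signals of 979, 873, 1317 and 1084 on Cox-1 KO replicates 1 to 4, against 1331, 1345, 1388 and 1117 on wild-type replicates 1 to 4, on 1422740_at. Cox-1 KO replicates 1, 2 and 4 were below all wild-type arrays, and replicate 3 lay within their range. The log2 fold change was -0.30 (standard error 0.128, limma adjusted p = 0.56), and on its second probe set it was -0.11 (adjusted p = 0.796). The unadjusted p of the first was under 0.05 in 11 of the 22 settings, and not with the yolk sac level in the fit (log2 fold change -0.32, adjusted p = 0.921). Tnfrsf1a, the TNF receptor TNFR1 of most cells, was the most tightly bounded of these. It had signals of 5123, 5460, 5179 and 4249 on Cox-1 KO replicates 1 to 4, against 4893, 5054, 4876 and 4740 on wild-type replicates 1 to 4. The wild-type arrays lay within the Cox-1 KO range, and the 95% interval of its log2 fold change of 0.03 was -0.14 to 0.20.

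The B lineage receptors had 2 probe sets, for 2 genes. Tnfrsf13b (TACI), a receptor of BAFF and APRIL, had signals of 342, 343, 401 and 291 on Cox-1 KO replicates 1 to 4, against 302, 253, 267 and 326 on wild-type replicates 1 to 4. Cox-1 KO replicates 1 to 3 lay above all wild-type arrays and replicate 4 did not (log2 fold change 0.26, standard error 0.154, limma adjusted p = 0.643). Tnfrsf13c, the BAFF receptor of mature B cells, was near background, at 81 to 138 in Cox-1 KO and 82 to 145 in wild-type uterus. Of 13 plasma cell genes, 12 were measured, with 5 higher and none lower at an unadjusted p under 0.05 (against 3.69% and 5.12%) and a summed signal of 90865 to 97402 in Cox-1 KO and 44742 to 70470 in wild-type uterus, and their part in the TACI values was not tested. The leading genes of this list, Mzb1, Jchain and Igha, had log2 fold changes of 1.51, 2.86 and 1.87, of which Mzb1 passed (limma adjusted p = 0.0356). The summed signal of 6 measured B cell genes, of 12, was 5227 to 6889 in Cox-1 KO and 5537 to 6664 in wild-type uterus. Of them 1, Cd79b, was higher at an unadjusted p under 0.05 (against 3.69% of all probe sets), with a log2 fold change of 0.33. Tnfrsf17 (BCMA), the receptor of plasma cells, was not analysed here.

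The ligands had 7 probe sets for 4 genes, and none had an unadjusted p under 0.05. Fasl, which triggers apoptosis through Fas and is made by cytotoxic cells, had the smallest p among them. Its signals were 127, 180, 184 and 176 on Cox-1 KO replicates 1 to 4, against 111, 135, 122 and 148 on wild-type replicates 1 to 4. Cox-1 KO replicates 2 to 4 lay above all wild-type arrays and replicate 1 within them, at signals close to 100 (log2 fold change 0.36, standard error 0.226, limma adjusted p = 0.659). Tnfsf9, the ligand of Tnfrsf9, is named here for that role after its values were seen. It had 1733, 2532, 2211 and 2338 on Cox-1 KO replicates 1 to 4, against 2360, 2214, 2309 and 1700 on wild-type replicates 1 to 4. The groups overlapped over nearly their whole range (log2 fold change 0.04, 95% interval -0.26 to 0.33). Of the other settings, only the yolk sac covariate brought its unadjusted p under 0.05, at a log2 fold change of 0.25 (limma adjusted p = 0.886). The 3 probe sets of Tnfsf10 (TRAIL), an apoptosis ligand, had log2 fold changes of -0.08 to -0.23. Those of Tnfsf13b (BAFF), a survival factor of B cells, were -0.06 and, at signals of 59 to 196 on Cox-1 KO arrays and 108 to 170 on wild-type arrays, -0.57.

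For each probe set of the decoy receptors the groups overlapped. Tnfrsf11b (osteoprotegerin), the soluble decoy of RANK ligand, had log2 fold changes of -0.16 and 0.07 on its 2 probe sets. Tnfrsf22 and Tnfrsf23 are mouse decoy receptors of TRAIL, both on chromosome 7. The probe set of Tnfrsf22 with the smallest p, 1422038_a_at, had signals of 43, 170, 140 and 103 on Cox-1 KO replicates 1 to 4, against 147, 108, 233 and 206 on wild-type replicates 1 to 4. Cox-1 KO replicate 1 was the lowest array, and the groups overlapped. The log2 fold change was -0.71 (standard error 0.428, limma adjusted p = 0.647), and -0.30 without that array. The 2 brighter probe sets of Tnfrsf22 had log2 fold changes with intervals of -0.23 to 0.22 and -0.28 to 0.15, and that of Tnfrsf23 had -0.31 to 0.28. A probe set shared by both genes had 0.24 (limma adjusted p = 0.665). The 2 probe sets shared by Tnfsf12 (TWEAK), Tnfsf13 (APRIL) or their joint locus had -0.04 and 0.01. For the other members of the superfamily named in the rule, Tnf, Lta, Ltb, Fas, Cd27 and Cd70 among them, no probe set was analysed here.

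Of 44 listed genes of TNF receptor signalling (adaptors, kinases, caspase 8 and its regulators, NF-kB subunits and inhibitors), 39 were measured, with a median log2 fold change of 0.04. None passed an adjusted p under 0.05, and 1 was higher and 1 lower at an unadjusted p under 0.05, against backgrounds of 3.69% and 5.12%. The higher gene was Tnfaip3 (A20), an enzyme that restrains NF-kB and is itself induced by it. Tnfaip3 had signals of 966, 1048, 859 and 858 on Cox-1 KO replicates 1 to 4, against 650, 692, 759 and 799 on wild-type replicates 1 to 4. Every Cox-1 KO array lay above every wild-type array (log2 fold change 0.36, standard error 0.107, limma adjusted p = 0.476). The lower gene was Traf5, an adaptor of CD27, CD40 and OX40, with 857, 901, 884 and 673 on Cox-1 KO replicates 1 to 4, against 1033, 1099, 1063 and 879 on wild-type replicates 1 to 4. Its groups overlapped only at wild-type replicate 4 (log2 fold change -0.30, standard error 0.118, limma adjusted p = 0.538). Next by p was Map3k5 (ASK1), a stress kinase, with -0.18 (adjusted p = 0.583).

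Genes that NF-kB induces ran in both directions. Of 30 listed, 26 were measured, 13 above 0 and 13 below 0, with a median log2 fold change of -0.01. At an unadjusted p under 0.05, 3 were higher and 2 lower (against 3.69% and 5.12% of all probe sets), and none passed with adjustment. Saa3, an acute phase protein, averaged 3963 ± 1154 in Cox-1 KO and 2336 ± 976.9 in wild-type uterus (SD, n = 4 each; log2 fold change 0.80, limma adjusted p = 0.526). Ccl2, a monocyte chemokine, had a log2 fold change of 0.42, and Icam1, an adhesion molecule of endothelium and leukocytes, had 0.25, without overlap of the groups. Il1a, a cytokine of the interleukin 1 family, was lower on every Cox-1 KO array than on any wild-type array, at 892 to 1016 in Cox-1 KO against 1024 to 1333 in wild-type uterus (log2 fold change -0.29, limma adjusted p = 0.526). Ccl20, a chemokine of epithelium, had -0.65 (adjusted p = 0.533). Icam1 and Ccl20 were named after their values were seen, as members of these small counts. Of a list of 7 genes meant for superfamily genes that the symbol rule leaves out, 4 were measured and none had an unadjusted p under 0.05. One of the 4, Pglyrp1, is not a member of the superfamily. Ngfr, the nerve growth factor receptor of nerves and stroma, had the smallest p among them, with 2415, 2602, 1949 and 1973 on Cox-1 KO replicates 1 to 4, against 4499, 2810, 2575 and 2096 on wild-type replicates 1 to 4. Wild-type replicate 1 was far above the others, and the groups overlapped (log2 fold change -0.37, limma adjusted p = 0.603). Among markers of other cells, 6 neutrophil genes had a median log2 fold change of 0.45 (2 higher at an unadjusted p under 0.05), 14 of endothelium -0.01 (1 lower), 10 of smooth muscle and stroma -0.07 (2 lower) and 11 of epithelium 0.16 (1 higher). The shares over all probe sets were 3.69% higher and 5.12% lower, and none of these marker genes passed with adjustment.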

How the data were processed

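Uterine RNA of 4 Cox-1 KO and 4 wild-type mice was measured at gestational day 18, with groups and replicate numbers taken from the sample titles. Array images were summarized by the authors with MAS5 and brought to one common mean level by global scaling. What they deposited is a linear signal intensity per probe set, in whole numbers. Detection calls were not used here. How the 28000 probe sets were chosen is not given in the sources used here. Signals under 1 (1 value) were set to 1 and taken to log2, and 60 array controls were left out. Probe sets were tested with limma 3.58.1 in R 4.3.3, with a trend on mean signal. The code of the fit was also run on simulated signals. These had independent noise and no effects shared by an array, so that run is no evidence for the results here.

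Probe sets were named from the platform annotation, in which 23579 carry 1 symbol, 653 several and 3720, controls aside, none. Symbols were updated by gene ID, which matched 23521. Ptgs1 was named through the probe set of the study's additional file. In the lists a gene was read on its brightest tested probe set. The members, lists and tests were chosen with earlier results of these data known. Named were Tnfrsf9, the 10 member probe sets with the smallest p, the smallest p of each role, and up to 3 genes of each pathway list and, where a result touches them, of the marker lists. Refits changed one choice each: the log scale (32 added, or a floor of 100), the filter (none, or 200), scaling (quantiles or medians), the variance model (untrended, robust, weighted arrays), terms for replicate number or for marker levels, and the arrays (each left out once). The methods' t-test was run too. The limma p-values set the difference between the groups against the spread between these samples, with that spread shared in part over all probe sets. The study's columns of fold changes and p-values were not used.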

Additional observations from a re-analysis of the deposited data

Results flagged for a closer look

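Of 74 groups of 4 arrays (37 member probe sets in each genotype), 4 held an array whose gap to the nearest other was above Dixon's 95% critical value, as a share of the group's range. Chance alone marks about 1 group in 20. Fasl on Cox-1 KO replicate 1 was low, at 127 against 176 to 184 on the other Cox-1 KO arrays (gap 0.86 of the range). Tnfrsf11a on the same array was high, at 316 against 220 to 234 (0.854). Tnfrsf4 on Cox-1 KO replicate 4 was high, at 453 against 379 to 391 (0.838). Tnfsf13b on 1445251_at was high on Cox-1 KO replicate 3, at 196 against 59 to 82 (0.832), around the signal of 100 that the filter asks for.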

How the results depend on the processing

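The 10 other named member probe sets kept their direction in all 207 refits, and none of them crossed the adjusted threshold in any. They were named for a small p on these same arrays, so the kept direction is not independent evidence. No superfamily probe set was called by limma in any of the 21 other settings of the fit, leaving out each array included (0 in each), whereas the methods' t-test at its threshold gave 1. The members at an unadjusted p under 0.05, 4 in all, became 2 to 7 with an array left out, the lowest on dropping wild-type replicate 1 and the highest on dropping Cox-1 KO replicate 3. For Tnfrsf9 these refits gave log2 fold changes of 0.52 to 0.71. The 2 signalling genes became 1 to 3, with 1 left on dropping wild-type replicate 1, wild-type replicate 2 or Cox-1 KO replicate 4. Over all probe sets the 3 called became 18 when arrays were weighted, 12 at a floor of 100, 11 after centring on medians, 10 on a scale of log2(signal + 32), 6 in the robust fit, 15 with the decidua and trophoblast list and 51 with the natural killer list as a covariate (both chosen after seeing the data), and 2 to 25 with an array left out, of which 25 came on dropping wild-type replicate 1 and 9 each on dropping replicate 2 or 4 of the Cox-1 KO group. The cause was not tested. With a replicate block 3 probe sets, no member, 4 members at an unadjusted p and a Tnfrsf9 change of 0.61 resulted, which changed no call. Deviations of same-numbered arrays from their group means correlated at -0.254, 0.219, -0.181 and 0.165. With 4 arrays a group this cannot settle whether same-numbered arrays were handled together. The methods describe parallel handling of balanced sample groups, without naming them. No detection calls were used, and 7 of the 37 probe sets averaged under 200 in both groups, where MAS5 signals say little.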
